A study of Mus musculus with 4 samples.

Results

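The cornified envelope is the shell of crosslinked protein that replaces the plasma membrane of a keratinocyte at the skin surface, and most of its building blocks are encoded side by side in the epidermal differentiation complex, on chromosome 3 of the mouse. The genes described here are those of that complex that encode envelope proteins: the small proline-rich (Sprr) genes, the late cornified envelope (Lce) genes, loricrin (Lor), involucrin (Ivl), the fused S100-type genes (Flg2, Hrnr, Rptn, Tchh, Tchhl1 and Crnn) and Crct1, Kprp and Lelp1. They were picked by a rule on gene symbols that reads no measured value, although earlier results of these data were known when the rule was set, and the S100 genes of the same complex were left out. The rule found 47 transcript clusters of the 23410 that carry a gene symbol, and 43 of these name 1 gene while 4 name several near-identical ones. A transcript cluster is a set of array probes summarised together, in most cases for the transcripts of 1 gene. No cluster of the annotation used here names Flg.

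RNA of whole skin from C57BL/6 mice was hybridised to 4 Affymetrix MoGene 1.0 ST arrays, and all mice carried 1 intact allele of Tnfrsf1a, the gene of the TNF receptor TNFR1. The K5-Cre group, with 2 arrays (replicates 2 and 6), was CflarF/F;K5-Cre;Tnfrsf1a+/-, in which Cre driven by the keratin 5 promoter of basal keratinocytes acts on floxed alleles of Cflar, the gene of the cell death inhibitor cFLIP. The no K5-Cre group held replicate 1 (CflarF/+;Tnfrsf1a+/-) and replicate 3 (CflarF/F;Tnfrsf1a+/-), which carried floxed Cflar without Cre. The study looked for genes that could stand in the way of keratinocyte proliferation and differentiation. Age, sex, body site and the number of animals behind an array are not in the labels, so the spread between arrays may be technical.

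Keratinocytes switch on the envelope genes as they leave the basal layer. Involucrin and the membrane-linked proteins are laid down early, loricrin makes up the bulk of the shell, SPRR proteins bridge between loricrin molecules, and LCE proteins are added late, while transglutaminases form the bonds. Sprr genes are known to be low in resting interfollicular epidermis and to be induced by injury and inflammation. In human skin the LCE3 genes are induced after barrier damage, whereas LCE1 genes belong to normal epidermis.

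The envelope genes did not move as 1 block in skin labelled K5-Cre. The Sprr genes, the Lce3 genes and Rptn were higher by 2.56-fold to 50.6-fold, and the Lce1 genes were also higher but by 1.32-fold to 4.90-fold. Lor, Hrnr, Crnn and Tchh, with log2 differences between −0.10 and 0.12, did not pass the test, and Flg2 was lower. The families also stood at different levels in no K5-Cre skin. Log2 signals there were 4.94 to 11.27 for Sprr, 4.76 to 9.62 for Lce3 and 8.02 to 13.31 for Lce1. Lor, Hrnr and Lce1c lay above the 99th percentile of all clusters on every array, where little of the scale is left. The part of these levels in the differences was not tested. Of the 47 clusters, 41 passed as higher, 1 as lower and 5 did not pass (limma, Benjamini-Hochberg adjusted over all 23410 clusters, threshold 0.05). Across all clusters tested, 59.6% passed, 30.5% as higher and 29.1% as lower. At least 4-fold higher were 26 of the 47, against 2.29% of all clusters, and at least 16-fold higher were 13, against 0.342% of all clusters. These shares are given as a description. The median log2 difference was 2.15 for the envelope clusters and 0.10 for all clusters tested. With the CflarF/F control alone, the comparison that the series text states, 37 passed as higher and 0 as lower, where 10.5% of all clusters passed as higher. All differences are K5-Cre minus no K5-Cre in log2 signal with the moderated standard error (SE), 2 arrays per group.

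**Figure D1:**
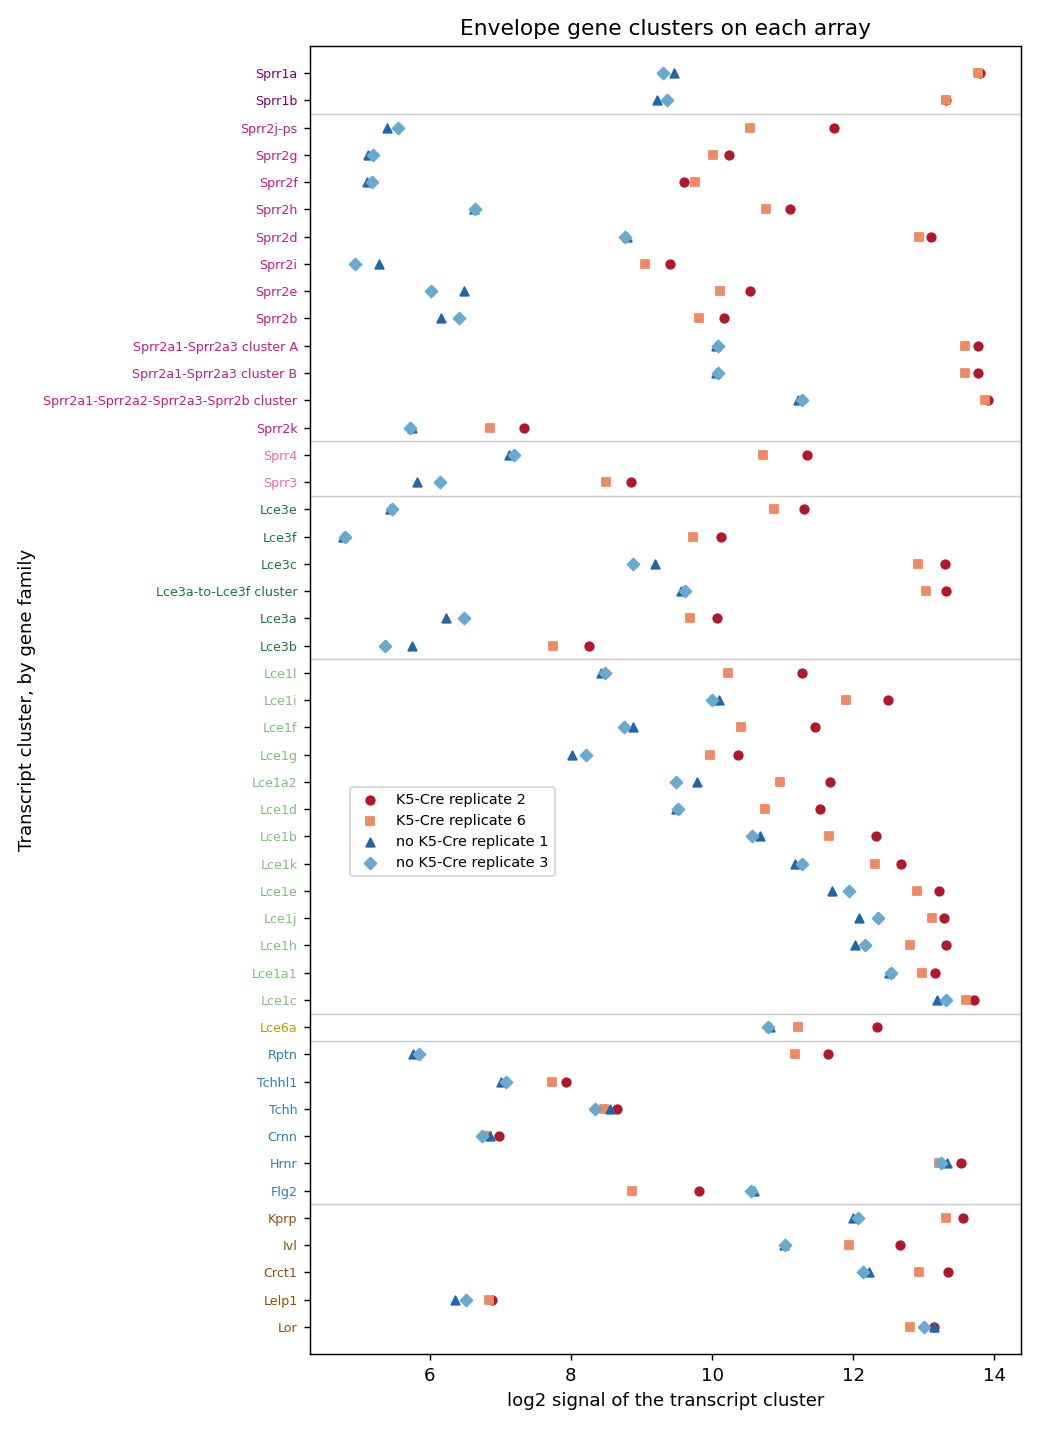
Log2 signal (horizontal axis) of the 47 envelope gene clusters (rows, by family, label colours mark the family) on the 2 K5-Cre arrays (red circles, orange squares) and the 2 no K5-Cre arrays (blue triangles, light blue diamonds). Both K5-Cre arrays lie to the right of both no K5-Cre arrays for 42 clusters (46.7% of all clusters tested), and the groups overlap for Lor, Hrnr, Crnn and Tchh.

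Because the Sprr genes, the Lce3 genes and Rptn carried the largest differences, and Lce1c and Lor some of the smallest, the promoter windows of a representative of each are shown first. Each runs 5′ to 3′ from 250 bases before the RefSeq start to 50 bases after it (GRCm38.p6). Capitals mark matches, on either strand, to TGANTCA and to TATAAA, the core of the TATA box. TGANTCA takes in the site of the stress-responsive factor AP-1, TGAGTCA or TGACTCA, but allows any middle base. The match in the Rptn window reads TGATTCA, which is not that site. That in the Lce3e window reads TTTATA, which is TATAAA on the other strand. It stands at −243, far from the −29 of TATAAA in Sprr2d, and is not shown to be a TATA box.
Sprr2d, chr3:92338890-92339189, plus strand: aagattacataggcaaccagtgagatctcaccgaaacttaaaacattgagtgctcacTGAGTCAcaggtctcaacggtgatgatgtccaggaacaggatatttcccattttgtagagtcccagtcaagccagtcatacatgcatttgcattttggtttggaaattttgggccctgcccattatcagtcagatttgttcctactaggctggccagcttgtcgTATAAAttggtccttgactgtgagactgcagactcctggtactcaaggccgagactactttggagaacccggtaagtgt
Sprr1a, chr3:92485832-92486131, minus strand: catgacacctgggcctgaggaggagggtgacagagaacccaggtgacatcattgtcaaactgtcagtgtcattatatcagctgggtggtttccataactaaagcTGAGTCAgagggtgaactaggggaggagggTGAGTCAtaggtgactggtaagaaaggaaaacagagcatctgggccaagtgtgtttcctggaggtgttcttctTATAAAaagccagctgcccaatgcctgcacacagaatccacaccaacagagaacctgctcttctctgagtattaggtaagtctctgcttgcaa
Rptn, chr3:93393449-93393748, plus strand: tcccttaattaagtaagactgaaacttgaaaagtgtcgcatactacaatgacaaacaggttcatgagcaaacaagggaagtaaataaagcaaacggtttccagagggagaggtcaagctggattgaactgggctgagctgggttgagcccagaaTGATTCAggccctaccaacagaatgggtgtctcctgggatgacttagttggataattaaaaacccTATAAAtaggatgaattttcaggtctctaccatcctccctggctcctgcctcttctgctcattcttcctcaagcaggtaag
Lce3e, chr3:92966811-92967110, plus strand: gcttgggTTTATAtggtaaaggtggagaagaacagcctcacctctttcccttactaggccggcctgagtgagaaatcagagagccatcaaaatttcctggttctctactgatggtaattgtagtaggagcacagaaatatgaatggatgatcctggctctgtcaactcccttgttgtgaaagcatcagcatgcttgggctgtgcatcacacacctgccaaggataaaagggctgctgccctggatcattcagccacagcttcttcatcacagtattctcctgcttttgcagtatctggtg
Lce1c, chr3:92678997-92679296, plus strand: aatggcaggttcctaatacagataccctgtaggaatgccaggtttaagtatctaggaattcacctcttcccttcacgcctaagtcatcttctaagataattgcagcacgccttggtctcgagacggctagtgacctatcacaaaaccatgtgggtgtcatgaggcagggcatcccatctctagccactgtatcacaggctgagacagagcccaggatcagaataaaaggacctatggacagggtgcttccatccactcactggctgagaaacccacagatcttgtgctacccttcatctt
Lor, chr3:92083093-92083392, minus strand: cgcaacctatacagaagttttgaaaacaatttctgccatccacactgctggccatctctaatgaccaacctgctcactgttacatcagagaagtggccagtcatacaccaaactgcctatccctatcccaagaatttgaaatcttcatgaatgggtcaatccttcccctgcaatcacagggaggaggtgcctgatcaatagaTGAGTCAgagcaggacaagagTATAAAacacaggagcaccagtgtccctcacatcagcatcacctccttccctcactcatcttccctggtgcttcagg

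Promoter windows were found in RefSeq for 42 of the 47 genes that the clusters name. Crct1, Kprp, Lce1f, Sprr2g and Sprr2j-ps had no entry. TGANTCA was present in 15 of the 42 windows (35.7%), against 7.79% of 32544 distinct windows of the same length over the genome. Identical windows were counted once over the genome but not among the 42, and windows of close relatives are not independent. How many of the 15 read TGAGTCA or TGACTCA was not counted. It stood in 9 of 14 Sprr windows (64.3%), in 0 of 12 Lce1 windows and in 0 of 6 Lce3 windows. TATAAA was present in 10 of 14 Sprr windows (71.4%), in 1 of 12 Lce1 windows and in 1 of 6 Lce3 windows, against 13.6% over the genome. Both motifs together were found in 13 of the 42 windows and in 1.51% of all windows.

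The motifs sat at fixed places in the Sprr2 genes. In the windows of Sprr2b, Sprr2d, Sprr2e, Sprr2f, Sprr2h, Sprr2i and Sprr2k the first base of a TGANTCA match lay between positions −198 and −193 from the start, and that of TATAAA at −29. Sprr2k, whose difference was the smallest of the Sprr genes, held a further TGANTCA at −182. The windows of Sprr2a1, Sprr2a2 and Sprr2a3 held neither motif. Lor, which did not pass, had TGANTCA at −48 and TATAAA at −27. Crnn, which did not pass either, had them at −96 and −29, and Rptn, 48.4-fold higher, at −96 and −31. Flg2, which passed as lower, had TGANTCA at −69. Ivl and Tchhl1, which passed as higher, had TGANTCA at −116 and −87. A looser pattern, TGANNNNGC, the core of the antioxidant response element, was found in 6 of 6 Lce3 windows, 8 of 14 Sprr windows and 4 of 12 Lce1 windows, against 41.4% of all windows. A match is a match of letters and does not show that a factor binds there.

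Windows of a family were aligned pair by pair. The median identity was 60.7% over 45 Sprr2 pairs, 64.6% over 66 Lce1 pairs and 57.5% over 15 Lce3 pairs. Sprr2a1 and Sprr2a2 had identical windows. The genes themselves are close relatives too, so that probes of 1 gene can take up RNA of another. In the authors' deposited table, which holds 26 of the 47 clusters, 24 carry cross-hybridisation type 1 and 2 carry type 3. Type 3 is given for the Sprr2a1-Sprr2a2-Sprr2a3-Sprr2b cluster and the Lce3a-to-Lce3f cluster, which name several genes. The remaining clusters that name several genes, each naming Sprr2a1 and Sprr2a3, carry type 1. Type 1 therefore does not show that a cluster reports 1 gene.

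All 16 Sprr clusters passed as higher, 15 of them by at least 4-fold, with a median log2 difference of 4.04. Their proteins are short, proline-rich crosslinkers of the envelope. Sprr2j-ps, annotated as a pseudogene, had a difference close to those of Lce3e and Rptn, and which of the 3 was largest changed with the array left out. Its log2 signal was 11.73 and 10.54 in K5-Cre skin, against 5.40 and 5.55 in no K5-Cre skin (mm9 chr3:92222004-92223318). Sprr2g gave 10.24 and 10.02 in K5-Cre skin, against 5.13 and 5.20 in no K5-Cre skin. Sprr2f gave 9.61 and 9.75, against 5.11 and 5.18. For these 3 clusters the K5-Cre arrays stood 4 or more log2 units above both no K5-Cre arrays. The differences were 5.66 ± 0.37, 4.97 ± 0.12 and 4.54 ± 0.10 (SE), with adjusted p values of 0.000215, 2.82e-05 and 2.82e-05. That of Sprr2j-ps was 5.07 without K5-Cre replicate 2 and 6.25 without K5-Cre replicate 6. In the authors' deposited table the differences of the 3 were smaller by over 1.5 times in fold, at 5.05, 4.17 and 3.89. In no K5-Cre skin all 3 lay under the 25th percentile of all clusters, which was 6.23 and 6.26 on the 2 arrays, so their folds depend on how the lowest signals were measured.

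The Sprr1 pair, which marks squamous and stressed keratinocytes, was also higher. Sprr1a averaged 13.79 ± 0.02 in K5-Cre skin and 9.38 ± 0.10 in no K5-Cre skin (mean log2 signal ± SD, n = 2 each), a difference of 4.40 ± 0.09 (SE), or 21.2-fold. Sprr1b averaged 13.31 ± 0.004 in K5-Cre skin and 9.30 ± 0.10 in no K5-Cre skin, a difference of 4.02 ± 0.09 (SE), or 16.2-fold. Both had adjusted p = 2.82e-05, and their groups lay far apart. In K5-Cre skin the log2 signals of both lay above the 99th percentile of all clusters, 12.69 and 12.71 on the 2 arrays, where little of the scale is left, so the small spread of their K5-Cre values cannot be read as precision.

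The other Sprr2 genes with a cluster of their own were mostly 13.0-fold to 19.6-fold higher. Sprr2d averaged 13.01 ± 0.12 in K5-Cre skin and 8.78 ± 0.02 in no K5-Cre skin (SD, n = 2 each), and was 18.8-fold higher (mm9 chr3:92143062-92144795). Sprr2h, Sprr2i, Sprr2e and Sprr2b were 19.6-fold, 17.4-fold, 16.8-fold and 13.0-fold higher, with adjusted p values from 3.94e-05 to 0.000114. Sprr2b was 25.1-fold higher in the authors' deposited table. Sprr2k, at the end of the Sprr2 row, was the exception. Its log2 signal was 7.33 and 6.86 in K5-Cre skin, against 5.76 and 5.72 in no K5-Cre skin, a difference of 1.36 ± 0.17 (SE, adjusted p = 0.00176). All of its arrays lay under the median of all clusters, and the groups did not overlap.

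The genes at the Sprr2a locus cannot be told apart on this array. The cluster naming Sprr2a1, Sprr2a2, Sprr2a3 and Sprr2b had log2 signals of 13.91 and 13.87 in K5-Cre skin, against 11.22 and 11.27 in no K5-Cre skin, a difference of 2.64 ± 0.07 (SE). The K5-Cre values lay close to the array maxima of 14.18 and 14.16. The remaining pair, each naming Sprr2a1 and Sprr2a3, had the same values on every array, 13.77 and 13.58 in K5-Cre skin and 10.06 and 10.09 in no K5-Cre skin. Counted once, the envelope genes came to 46 clusters, of which 40 passed as higher.

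Sprr3, known from oral and oesophageal epithelium, and Sprr4 lie beside Sprr1a and were also higher. Sprr3 averaged 8.67 ± 0.25 in K5-Cre skin and 5.98 ± 0.23 in no K5-Cre skin, and Sprr4 averaged 11.03 ± 0.45 in K5-Cre skin and 7.16 ± 0.06 in no K5-Cre skin (mean log2 signal ± SD, n = 2 each). These are 6.44-fold and 14.6-fold differences, with adjusted p values of 0.000196 and 0.000133.

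**Figure D2:**
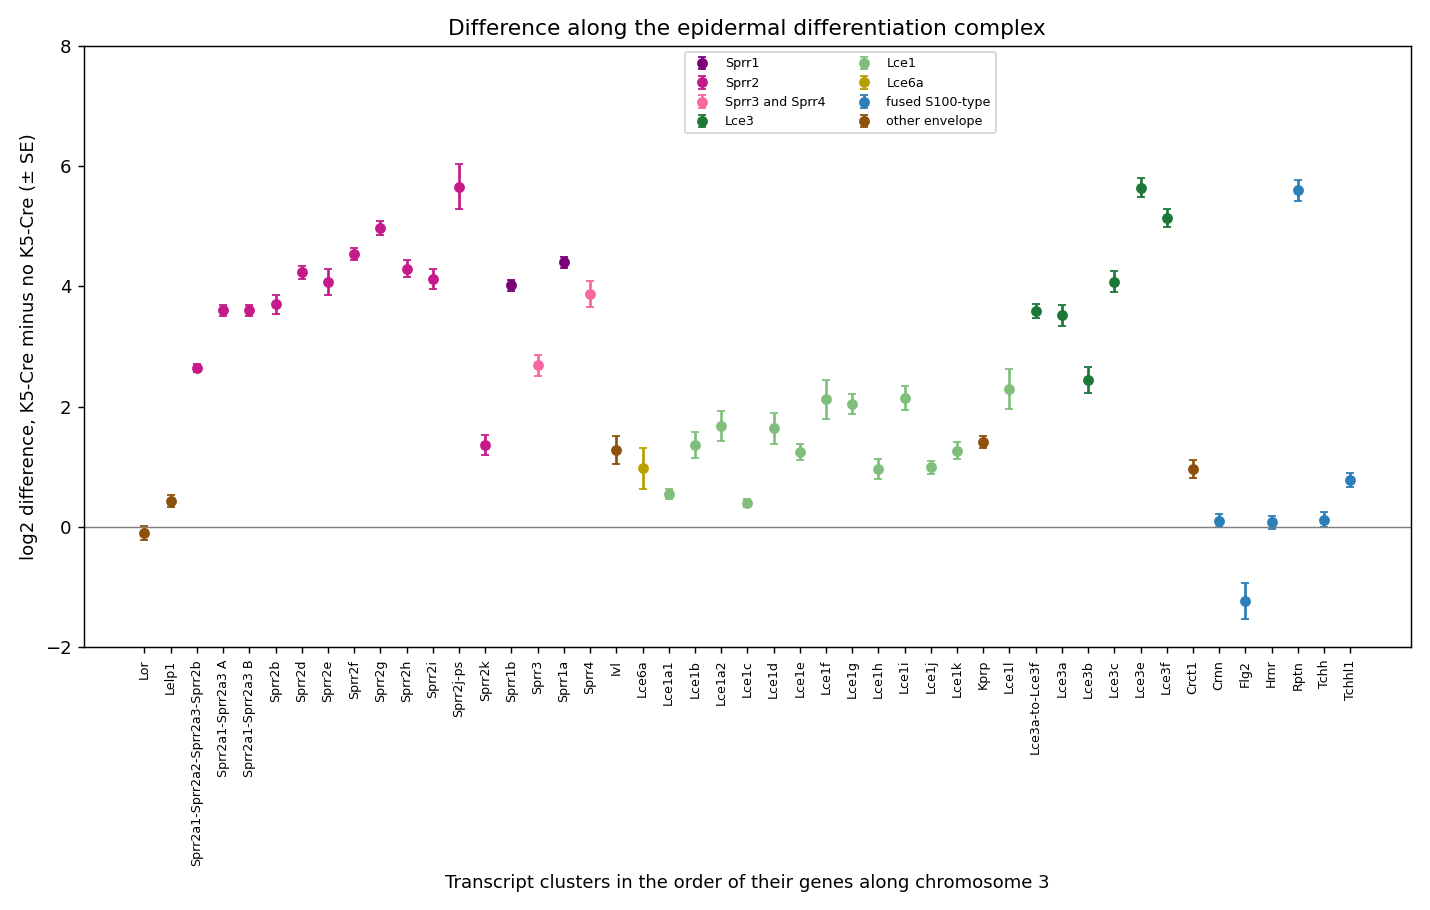
Log2 difference, K5-Cre minus no K5-Cre, with its SE (vertical axis) for the 47 clusters in the order of their genes along chromosome 3 (a cluster naming several genes stands at the first of them). The Sprr row and the Lce3 row stand high on either side of the Lce1 row, Rptn stands high between Hrnr and Tchh near 0, and Flg2 is below 0.

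The Lce3 genes behaved like the Sprr genes in size. All 6 clusters passed as higher, each by at least 4-fold, with a median log2 difference of 3.83. Lce3e gave log2 signals of 11.30 and 10.88 in K5-Cre skin, against 5.44 and 5.46 in no K5-Cre skin. Lce3f gave 10.12 and 9.73 in K5-Cre skin, against 4.76 and 4.81 in no K5-Cre skin, and Lce3c 13.30 and 12.92 in K5-Cre skin, against 9.19 and 8.88 in no K5-Cre skin. The nearest arrays of the 2 groups were 3.74 or more log2 units apart for each of the 3. Their differences were 5.64 ± 0.16, 5.14 ± 0.15 and 4.08 ± 0.17 (SE), with adjusted p values from 3.34e-05 to 5.97e-05, and Lce3e and Lce3f lay under the 25th percentile in no K5-Cre skin. In the authors' deposited table the difference of Lce3f was 4.26.

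The smallest Lce3 differences were those of Lce3b and Lce3a. Lce3b had 8.25 and 7.74 in K5-Cre skin, against 5.75 and 5.36 in no K5-Cre skin (log2 signal), a difference of 2.44 ± 0.21 (SE). Lce3a had 10.07 and 9.68 in K5-Cre skin, against 6.23 and 6.49 in no K5-Cre skin, a difference of 3.52 ± 0.17 (SE). The cluster naming Lce3a to Lce3f differed by 3.59 ± 0.12 (SE). The groups were apart for both genes, by 1.997 log2 units between the nearest arrays of Lce3b and 3.20 of Lce3a.

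The Lce1 genes, a row of near-identical late envelope genes between Ivl and Lce3, also passed as higher in all 13 cases, but 4 did so by at least 4-fold, and the median log2 difference was 1.36. That count was 0 without K5-Cre replicate 2, 6 without K5-Cre replicate 6 and 3 without no K5-Cre replicate 1. The largest differences over the 4 arrays were those of Lce1l, Lce1i and Lce1f. Lce1l had log2 signals of 11.27 and 10.23 in K5-Cre skin, against 8.43 and 8.48 in no K5-Cre skin. Lce1i had 12.49 and 11.90 in K5-Cre skin, against 10.10 and 9.997 in no K5-Cre skin, and Lce1f had 11.46 and 10.41, against 8.87 and 8.76. The differences were 2.29 ± 0.33, 2.15 ± 0.20 and 2.12 ± 0.33 (SE), with adjusted p values of 0.00288, 0.000636 and 0.00382. The groups did not overlap for any of the 13. Across all clusters tested, 19863 of 23410 did not overlap, and 46.7% did not overlap with K5-Cre higher. The K5-Cre arrays stood apart from each other by 1.04 for both Lce1l and Lce1f.

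Lce1c and Lce1a1 moved least. Lce1c gave 13.71 and 13.59 in K5-Cre skin, against 13.19 and 13.31 in no K5-Cre skin, a difference of 0.40 ± 0.07 (SE, adjusted p = 0.00627). Lce1a1 gave 13.16 and 12.97 in K5-Cre skin, against 12.51 and 12.54 in no K5-Cre skin, a difference of 0.54 ± 0.08 (SE, adjusted p = 0.00382). Lce1c lay above the 99th percentile on all 4 arrays, where little of the scale is left. The calls of both genes, and that of Lce1h, ended when no K5-Cre replicate 1 was left out (adjusted p = 0.0812 for Lce1c, 0.0548 for Lce1a1 and 0.0508 for Lce1h). The other 8 Lce1 genes differed by 0.97 to 2.05. Lce1h, at 0.97, had a difference of 1.67 in the authors' deposited table. Lce6a, a distant member, had 12.34 and 11.22 in K5-Cre skin, against 10.82 and 10.79 in no K5-Cre skin. Its K5-Cre arrays differed from each other by 1.12, more than the group difference of 0.97 ± 0.35 (SE, adjusted p = 0.0544), which did not pass. It did pass once the array medians were aligned (adjusted p = 0.0431). It also passed without K5-Cre replicate 2, at 0.41 (adjusted p = 0.000234), and without K5-Cre replicate 6, at 1.53 (adjusted p = 5.5e-10), where the lone K5-Cre array is assumed to vary like the no K5-Cre arrays.

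The fused S100-type genes, which encode long repetitive proteins that bind keratin filaments or become part of the envelope, went different ways. Rptn encodes repetin, an envelope precursor. Its log2 signal was 11.64 and 11.18 in K5-Cre skin, against 5.77 and 5.85 in no K5-Cre skin, a difference of 5.60 ± 0.17 (SE, adjusted p = 3.42e-05), or 48.4-fold (mm9 chr3:93197621-93203364). Both no K5-Cre values lay under the 25th percentile of all clusters. Rptn was the only one of these 6 genes with a difference of 4-fold or more, and its neighbours on either side, Hrnr and Tchh, did not pass.

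Hrnr encodes hornerin, a relative of filaggrin, and all 4 of its values lay above the 99th percentile of their arrays. It had log2 signals of 13.52 and 13.21 in K5-Cre skin, against 13.33 and 13.25 in no K5-Cre skin, so the groups overlapped, and the difference was 0.074 ± 0.11 (SE, adjusted p = 0.578). Its direction turned with the array left out: −0.081 without K5-Cre replicate 2 and 0.23 (adjusted p = 0.0158) without K5-Cre replicate 6. Flg2 encodes filaggrin-2, which is needed for cornification. Its signal was 9.82 and 8.87 in K5-Cre skin, against 10.60 and 10.56 in no K5-Cre skin. Both K5-Cre arrays were below both no K5-Cre arrays, with a gap of 0.95 between the K5-Cre arrays. The difference was −1.24 ± 0.30 (SE, adjusted p = 0.0171). Its size turned on the K5-Cre arrays: −1.71 without replicate 2 and −0.76 without replicate 6. Without no K5-Cre replicate 1 or replicate 3 it was −1.22 or −1.26. It no longer passed in either of those fits, where fewer of all clusters passed as well.

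Tchh encodes trichohyalin, a protein of the inner root sheath and medulla of the hair. It had 8.66 and 8.47 in K5-Cre skin, against 8.55 and 8.33 in no K5-Cre skin, and the difference of 0.12 ± 0.13 (SE, adjusted p = 0.45) did not pass. Of 6 keratin genes of the inner root sheath, by contrast, 5 were lower and 1 (Krt72) did not pass, where 29.1% of all clusters were lower. Their median difference was −1.66, and their summed linear signal was 824 and 703 in K5-Cre skin and 2148 and 2146 in no K5-Cre skin. Tchhl1, the trichohyalin-like gene next to it, had 7.93 and 7.73 in K5-Cre skin, against 7.01 and 7.09 in no K5-Cre skin, a rise of 0.78 ± 0.11 (SE, adjusted p = 0.00291). Crnn encodes cornulin, best known from oesophageal epithelium. It had 6.98 and 6.82 in K5-Cre skin, against 6.85 and 6.74 in no K5-Cre skin, under the median of all clusters on every array, and differed by 0.10 ± 0.11 (SE, adjusted p = 0.443).

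Lor, the main envelope protein gene of mouse epidermis, had log2 signals of 13.14 and 12.80 in K5-Cre skin, against 13.15 and 13.00 in no K5-Cre skin. The groups overlapped, and the difference of −0.10 ± 0.12 (SE, adjusted p = 0.487) did not pass. Without K5-Cre replicate 2 it was −0.27 (adjusted p = 0.00843) and without K5-Cre replicate 6 it was 0.063, so 1 array sets its direction. All 4 values lay above the 99th percentile of their arrays. Ivl, the early envelope gene, had 12.66 and 11.94 in K5-Cre skin, against 11.02 and 11.03 in no K5-Cre skin, and was higher by 1.27 ± 0.23 (SE, adjusted p = 0.0065).

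The smaller genes of the complex were modestly higher. Kprp, a keratinocyte proline-rich protein gene that lies within the Lce1 row, had 13.56 and 13.31 in K5-Cre skin, against 11.99 and 12.06 in no K5-Cre skin, a 2.65-fold difference (adjusted p = 0.000272). Crct1, next to the Lce3 row, had 13.35 and 12.93 in K5-Cre skin, against 12.22 and 12.14 in no K5-Cre skin, a 1.95-fold difference (adjusted p = 0.00326). Lelp1, near Lor, had 6.89 and 6.83 in K5-Cre skin, against 6.36 and 6.51 in no K5-Cre skin. Its rise of 0.42 ± 0.10 (SE, adjusted p = 0.0159) did not pass when no K5-Cre replicate 1 (adjusted p = 0.136) or replicate 3 (adjusted p = 0.0618) was dropped.

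**Figure D3:**
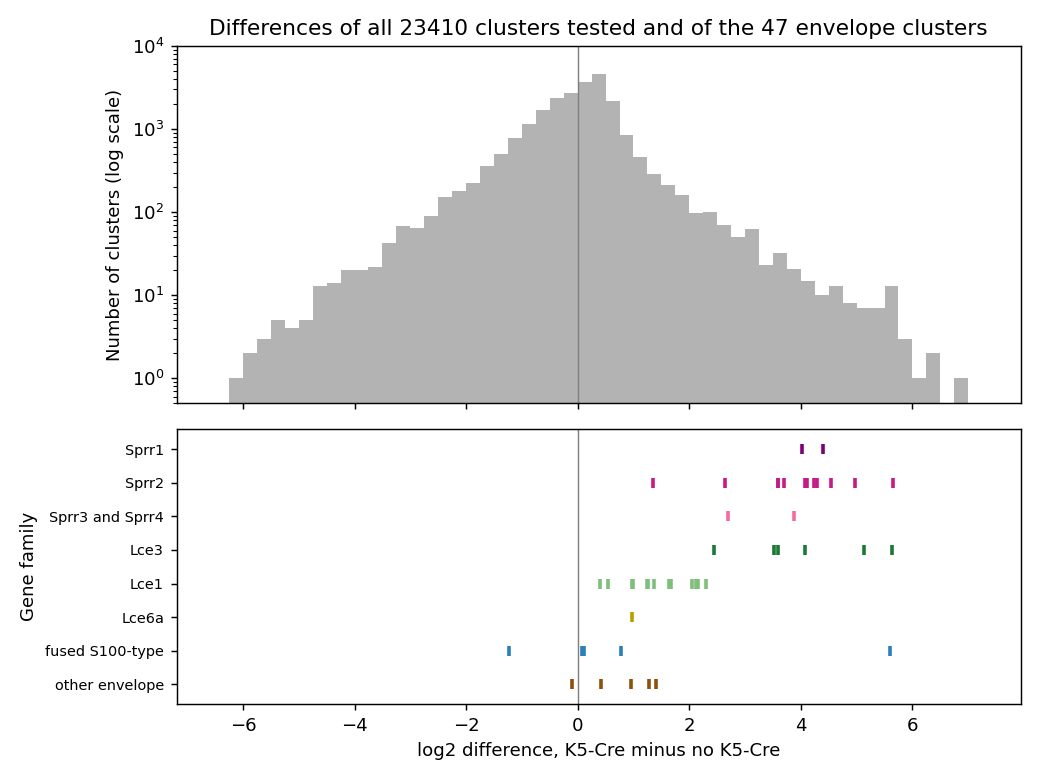
Upper panel: number of clusters (log scale) by log2 difference, K5-Cre minus no K5-Cre, for all 23410 clusters tested. Lower panel: the 47 envelope clusters on the same axis, 1 tick each, by family. The Lce3 ticks, the Sprr ticks other than that of Sprr2k (1.36) and that of Rptn lie in the thin right tail, the Lce1 ticks between 0.40 and 2.29, and Lor, Hrnr, Crnn and Tchh in the bulk around 0.

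The position of the genes on the scale shifted with these differences. On each K5-Cre array 17 of the 47 clusters lay above the 99th percentile and 0 under the 25th percentile. On each no K5-Cre array 3 lay above the 99th percentile and 11 under the 25th percentile. A filter on mean signal above the median of all clusters, 7.61, would have kept 38 of the 47, and 9 would not have been tested. No filter was therefore applied.

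The K5-Cre arrays differed from each other in these genes. Replicate 2 was above replicate 6 in 45 of 47 envelope clusters, by a median of 0.35 log2 units, against 48.2% of all clusters. The gap was 1.19 for Sprr2j-ps and 1.12 for Lce6a, and among the Lce1 genes its median was 0.50 and its highest value 1.04. Between the no K5-Cre arrays, whose Cflar genotypes differ, the median absolute gap was 0.10 and replicate 1 was the higher in 18 of 47. The part of this gap between the K5-Cre arrays in the differences above was not tested beyond leaving out each array in turn.

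**Figure D4:**
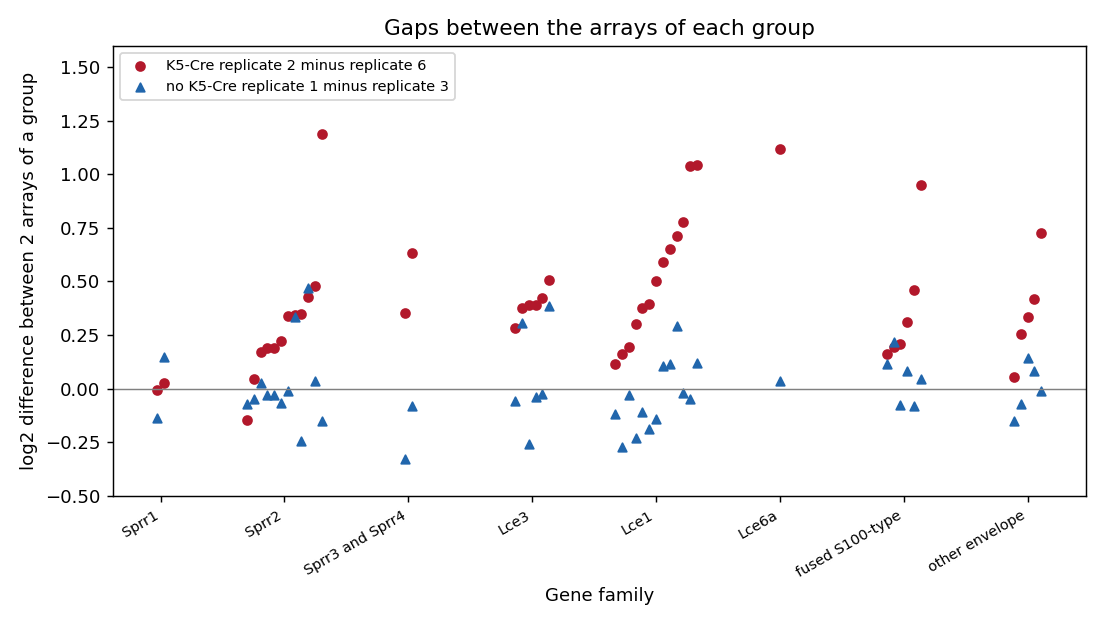
Log2 difference between the 2 arrays of a group (vertical axis) for each envelope cluster, by family: K5-Cre replicate 2 minus replicate 6 (red circles) and no K5-Cre replicate 1 minus replicate 3 (blue triangles). The K5-Cre gaps are above 0 in 45 of 47 clusters and reach 1.19, while the no K5-Cre gaps scatter on both sides of 0.

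A further list held genes that crosslink and process the envelope and genes that work beside it, such as keratin and desmosome genes. Of its 27 measured genes, 21 passed as higher and 0 as lower, against 30.5% and 29.1% of all clusters. The median log2 difference of the list was 0.99. Krt1, Krt10, Krtdap and Sbsn in it are also the measured genes of the suprabasal keratinocyte list below. The transglutaminase genes Tgm1 and Tgm3 were 4.77-fold and 5.34-fold higher, and Tgm5 1.99-fold higher. Klk7 and Klk5, proteases that shed the outermost cells, were 5.62-fold and 5.38-fold higher, and Cdsn, the corneodesmosin gene that holds those cells together, 4.35-fold. The 6 that did not pass were Krt1 and Krt10, the keratins of the layers where Lor is made (0.041 ± 0.073 and 0.013 ± 0.10, SE, adjusted p = 0.646 and 0.92), Ppl, Padi1, Padi3 and Krt2. Krt1 and Krt10 lay above the 99th percentile of all clusters on every array, where little of the scale is left. Replicate 2 of K5-Cre was above replicate 6 in all 27, by a median of 0.39.

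Of 24 measured transcription factor genes known to act on the complex, 17 were higher, 3 were lower and 4 did not pass, against 30.5% higher and 29.1% lower among all clusters, with a median log2 difference of 1.09. The AP-1 subunit genes Fosl1, Junb and Fos were 9.90-fold, 6.16-fold and 5.16-fold higher, Jun and Fosl2 2.06-fold and 2.08-fold, while Jund differed by 0.23 ± 0.13 (SE, adjusted p = 0.192). The epithelial ETS factor genes Ehf and Elf3 were 12.7-fold and 7.61-fold higher and Grhl3, a barrier gene regulator, 4.61-fold. Nfe2l2, which encodes the oxidative stress factor NRF2, was 1.28-fold higher. Satb1, Gata3 and Arnt were lower, with log2 differences of −1.33 ± 0.11, −1.01 ± 0.22 and −0.49 ± 0.15 (SE). Trp63, the master regulator of stratified epithelium, differed by 0.091 ± 0.21 (SE, adjusted p = 0.715).

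The cell types of the skin piece moved in the same arrays, and the counts that follow stand against 30.5% higher and 29.1% lower among all clusters. Summed linear signals of 5 fibroblast genes were 4636 and 4706 in K5-Cre skin and 32715 and 30938 in no K5-Cre skin, and all 5 were lower, as were all 5 of skeletal muscle and all 5 of adipocytes (median differences −2.93, −5.27 and −2.50). Muscle sums were 1126 and 1502 in K5-Cre skin and 30929 and 27159 in no K5-Cre skin, and adipocyte sums 1203 and 1054, against 15022 and 15483. All 5 neutrophil genes were higher, with sums of 12420 and 14480 in K5-Cre skin and 449 and 373 in no K5-Cre skin. For basal keratinocytes 4 of 5 genes were higher (sums 27001 and 23808 in K5-Cre skin, 15109 and 15045 in no K5-Cre skin) and for suprabasal keratinocytes 2 of 4, a count too small to set against that share (sums 38122 and 32143 in K5-Cre skin, 29564 and 28111 in no K5-Cre skin). Krt1 and Krt10 of the suprabasal list lay above the 99th percentile on every array, where little of the scale is left. The 4 stressed keratinocyte genes were all higher, with sums of 42958 and 37361 in K5-Cre skin and 3803 and 3631 in no K5-Cre skin. In whole skin more cells of a type and more RNA per cell cannot be told apart, and the part of these shifts in the envelope gene values was not tested. The targeted gene Cflar was higher, not lower, in K5-Cre skin in all 3 of its clusters (differences 0.83, 0.83 and 0.46), which average over the transcript and do not check the labels, so each direction rests on the labels.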

How the data were processed

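The main table holds log2 signal values per transcript cluster for 4 arrays, as deposited; the authors' summarisation and normalization are not given in the sources used here. A second deposited table holds a linear intensity for 1396 clusters, 26 of them envelope clusters, kept by the authors, per the file headers, for a 4-fold or larger ratio to no K5-Cre replicate 1 on some array (annotation on mm9). No per-sample column was left unused (0). Clusters were named from the platform annotation, with symbols of single-gene clusters updated through RefSeq (GRCm38.p6). All 23410 clusters with a symbol were fitted without a filter, 2 K5-Cre arrays against 2 no K5-Cre arrays, with limma 3.58.1 in R 4.3.3 (lmFit, eBayes with a mean-variance trend), two-sided, with Benjamini-Hochberg adjustment and a threshold of 0.05. The fit, tested on simulated data, had 5.55 moderated degrees of freedom. An exact permutation test cannot go under 0.333 here, so p-values rest on the variance model. The number of arrays limits precision: the median SE was 0.12. A list gene with several clusters was represented by that of highest mean. Promoter windows were aligned globally with Biopython 1.88. By rule, values on every array are given for the single genes outside Sprr and Lce and, in each family, for the 3 largest and the 2 smallest differences. The members and lists were chosen with earlier results of these data known. Alternatives were other normalizations, filters, variance models, the second table and each array left out.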

Additional observations from a re-analysis of the deposited data

How the results depend on the processing

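The count of envelope clusters that passed as higher was 41 of 47. It was 41 or 42 under quantile normalization, arrays shifted to the same median, no variance trend and a robust variance model. In those settings 27.4% to 36.7% of all clusters passed as higher. With 1 array left out the count rose and fell with the share of all clusters that passed, so its range is no measure of stability. No count is given for the 2 settings that keep only clusters above the median signal: of the 38 envelope clusters the filter on mean signal keeps, 9 have a no K5-Cre mean under its value and pass through their K5-Cre values. Chosen after the data were seen, the counts at least 4-fold and at least 16-fold higher were 26 and 13. They were the same under quantile normalization, the shift to a common median and both variance models. In those settings 2.29% to 2.44% of all clusters were at least 4-fold higher and 0.342% to 0.367% at least 16-fold higher. Both counts could rise or fall with 1 array left out. The count of Lce1 clusters at least 4-fold higher was 4, and 0 to 6 with 1 array left out. The count that passed as lower was 1 (Flg2), and 0 to 2 with 1 array left out: 0 without either no K5-Cre array, and 2 without K5-Cre replicate 2, where Lor joined Flg2. With 1 array left out the lone array of a group is assumed to vary like the other group. Among single clusters, directions turned for Hrnr, which was −0.081 without K5-Cre replicate 2 and 0.23 without K5-Cre replicate 6, and for Lor, which was −0.27 without K5-Cre replicate 2 and 0.063 without K5-Cre replicate 6. The cause was not tested. Calls were lost for 5 clusters without no K5-Cre replicate 1 and for 2 without replicate 3. In the authors' deposited table the difference was above 0 for all 26 envelope clusters it holds, as its 4-fold filter favours, and smaller than in the main table for 21 of them. It moved the fold by over 1.5 times for 6, downward for Lce3f, Sprr2g, Sprr2f and Sprr2j-ps and upward for Sprr2b and Lce1h. No paired analysis was possible because the groups share no replicate number. Signal over background was not assessed, which limits the folds of clusters low in no K5-Cre skin.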

Other observations

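Among genes with a cluster that lie between Lor and Tchhl1 on chromosome 3 and that the symbol rule left out, chosen after the data were seen, there were 3. Prr9, a proline-rich gene between Lor and Lelp1, had log2 signals of 7.16 and 6.94 in K5-Cre skin, against 6.41 and 6.37 in no K5-Cre skin, and was 1.58-fold higher (limma adjusted p = 0.00491). Smcp, a sperm mitochondrial protein gene, was 1.40-fold higher (adjusted p = 0.0216) and Tdpoz8 did not pass (adjusted p = 0.605). Smcp and Tdpoz8 lay under the 25th percentile of all clusters on every array.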
